A study of Mus musculus with 3 samples.

Results

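The miR-26 family was followed through 3 small-RNA sequencing libraries, taking the entries miR-26a-5p, miR-26b-5p and miR-26b-3p by name. These are 3 of the 1915 mature mouse miRNAs listed, and the other arms of the same hairpins, miR-26a-1-3p and miR-26a-2-3p, are described beside them. The libraries came from exosomes of B16 cells, a melanoma line labelled as strain C57BL/6J, from exosomes of JB6 cells, a line of normal skin from strain BALB/c per the labels, and from the B16 cells themselves. Exosomes are small vesicles that cells release into the medium, and ultracentrifugation was used to collect them. No treatment or genetic change is given for any group. With a single library per group nothing could be checked against replicates or tested across samples, and the intervals given describe the error of counting reads alone. The exosome libraries differ in cell line, strain and disease state at once, which cannot be told apart.

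miRNAs are short RNAs that guide the silencing of messenger RNAs through their seed, the bases near the 5′ end that pair with a target. A hairpin gives a duplex, of which the guide strand is kept and the passenger strand is mostly degraded. The miR-26 hairpins lie in introns of the Ctdsp genes, which encode small phosphatases of the RNA polymerase II tail. In human cells miR-26a and its hosts restrain the G1 to S transition together, and the family is known for repressing the chromatin enzyme Ezh2.

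The mature strands are shown because the family is split by very few bases. Sequences are from RefSeq on build GRCm38.p6, and all 5 miR-26 entries were matched there by name. Capitals mark the seed, bases 2 to 8 from the 5′ end.
miR-26a-5p: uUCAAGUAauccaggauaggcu
miR-26b-5p: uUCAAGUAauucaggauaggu
miR-26b-3p: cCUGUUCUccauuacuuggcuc
miR-26a-2-3p: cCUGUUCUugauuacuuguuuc
miR-26a-1-3p: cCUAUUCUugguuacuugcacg
The guide strands share the seed UCAAGUA, and no other matched miRNA of the files had it. Counting from 1 at the 5′ end with the miR-26a-5p base first, they differ inside by C11U. Their 3′ ends differ as well, and miR-26b-5p is 21 bases long against 22 for miR-26a-5p. The edit distance between them is 2. The passenger strands miR-26b-3p and miR-26a-2-3p share the seed CUGUUCU and lie 4 edits apart, while miR-26a-1-3p has another seed. The sources used here do not state how reads with mismatches were assigned, so separation of the guides rests on the base at position 11 and on the 3′ end.

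The hairpins are shown with both mature arms in capitals, since miR-26a-5p comes from 2 of them and cannot be traced to either.
Mir26b: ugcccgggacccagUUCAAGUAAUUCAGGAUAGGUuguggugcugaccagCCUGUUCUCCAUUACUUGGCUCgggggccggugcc
Mir26a-1: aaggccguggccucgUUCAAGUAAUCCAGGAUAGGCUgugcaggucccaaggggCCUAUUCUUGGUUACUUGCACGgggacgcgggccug
Mir26a-2: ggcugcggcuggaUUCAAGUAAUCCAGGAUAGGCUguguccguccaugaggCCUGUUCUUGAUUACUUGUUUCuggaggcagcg
Mir26b lies at chr1:74394310-74394394, plus strand, in intron 4 of 6 of Ctdsp1, 234 bases into an intron of 564 bases. Mir26a-1 lies at chr9:119031796-119031885, plus strand, in intron 5 of 7 of Ctdspl, an intron of 3283 bases. Mir26a-2 lies at chr10:126995530-126995613, plus strand, in intron 5 of 7 of Ctdsp2, an intron of 1946 bases. Each host is on the same strand, and the GENCODE M21 annotation of GRCm38 places no other gene over these hairpins. The host transcripts themselves were not measured.

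The libraries differed in depth, with 45677 miRNA reads in B16 exosomes, 4495956 in JB6 exosomes and 7925726 in B16 cells. No listed count was below 10, so a listed 0 stands for at most 9 reads, a limit of 197 RPM of miRNA reads in B16 exosomes, 2.002 RPM in JB6 exosomes and 1.14 RPM in B16 cells, where RPM scales a count to a fixed number of reads. Markers matched the melanoma label in part. miR-211-5p, a melanocyte miRNA, had 83 reads in B16 exosomes, a listed 0 in JB6 exosomes and 21080 reads in B16 cells. miR-204-5p, another melanocyte miRNA, had a listed 0 in B16 exosomes, 14 reads in JB6 exosomes and 60 in B16 cells. miR-137-3p, also of that list, was listed at 0 throughout. Of 6 epithelial markers 0 were listed above 0 in B16 exosomes, 2 in JB6 exosomes and 4 in B16 cells, and miR-141-3p and miR-205-5p were at 0 in each. Markers of other tissues stood out in JB6 exosomes. miR-122-5p, the liver miRNA, held 25.1% of reads there, 4 red-cell miRNAs held 1.48%, or 0.748% with the identical counts of miR-486a-5p and miR-486b-5p taken once, and 3 muscle miRNAs 0.371%, with 3 of 4 leukocyte markers listed at up to 35 reads. In B16 exosomes miR-122-5p held 0.0525% and all 11 red-cell, muscle and leukocyte markers were at 0. In B16 cells the summed liver, red-cell, muscle and leukocyte shares were 0.00531%, 0.00402% (0.00209% with that pair taken once), 0.000139% and 0.000126%, with 3 red-cell, 1 muscle and 1 leukocyte marker listed. The part of these markers in the miR-26 results was not tested.

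Levels of the guide strands came first. miR-26a-5p, the more abundant guide of the family, had 986 reads in B16 exosomes, 2094 in JB6 exosomes and 128304 in B16 cells. These were 2.16% of miRNA reads in B16 exosomes (exact Clopper-Pearson 95% interval 2.03 to 2.30), 0.0466% in JB6 exosomes (0.0446 to 0.0486) and 1.62% in B16 cells (1.61 to 1.63). The B16 libraries were the high ones, and no intervals overlapped. By count it ranked 12 of 149 listed miRNAs in B16 exosomes, 78 of 389 in JB6 exosomes and 17 of 559 in B16 cells.

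miR-26b-5p, the guide from the Ctdsp1 intron, had 323 reads in B16 exosomes, 233 in JB6 exosomes and 26041 in B16 cells. Its shares were 0.707% in B16 exosomes (0.632 to 0.788), 0.00518% in JB6 exosomes (0.00454 to 0.00589) and 0.329% in B16 cells (0.325 to 0.333). By share of miRNA reads the order of the libraries was that of miR-26a-5p, with B16 exosomes highest and JB6 exosomes lowest. The counting intervals were again apart. In the RPM values deposited by the authors, B16 cells were above B16 exosomes for both guides. These were 14711.5 against 1163.2 for miR-26a-5p and 2985.9 against 381.0 for miR-26b-5p. By count miR-26b-5p ranked 26 in B16 exosomes, 157 in JB6 exosomes and 42 in B16 cells. Together the 2 guides made up 2.87% of miRNA reads in B16 exosomes (2.71 to 3.02), 0.0518% in JB6 exosomes (0.0497 to 0.0539) and 1.95% in B16 cells (1.94 to 1.96).

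Of these libraries, the passenger strands were listed above 0 only in that of B16 cells. Both exosome libraries listed all 3 at 0, while the cells had 138 reads of miR-26b-3p, 535 of miR-26a-2-3p and 31 of miR-26a-1-3p. The share of miR-26b-3p in B16 cells was 0.00174% (0.00146 to 0.00206), which ranked 286 of 559. A listed 0 allows up to 0.0197% in B16 exosomes and up to 0.0002% in JB6 exosomes. The limit in B16 exosomes is above the cell share of any of these passenger strands. By shares of miRNA reads their presence there at the cell level was thus not detectable at this depth. With the authors' totals miR-26a-2-3p was lower in B16 exosomes than in B16 cells, at a ratio of at most 0.173 (0.0787 to 0.331). With those totals 60.9% of all miRNAs evaluated were lower.

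**Figure D1:**
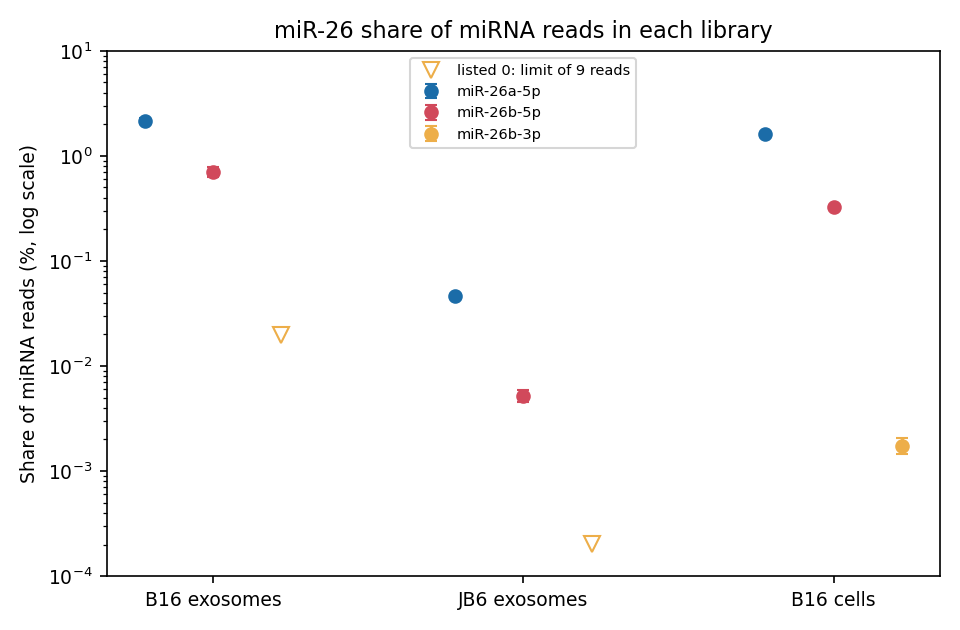
Share of miRNA reads (percent, log scale) of miR-26a-5p, miR-26b-5p and miR-26b-3p in B16 exosomes, JB6 exosomes and B16 cells, 1 library each. Points are shares with exact 95% counting intervals, many smaller than the point, and open triangles give the limit that a listed 0 allows. By these shares both guides are highest in B16 exosomes, at 2.16% and 0.707%, and lowest in JB6 exosomes, at 0.0466% and 0.00518%.

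Within each library miR-26a-5p outnumbered miR-26b-5p, but by different factors. There were 3.05 miR-26a-5p reads per miR-26b-5p read in B16 exosomes (exact 95% interval 2.69 to 3.47), 8.99 in JB6 exosomes (7.85 to 10.3) and 4.93 in B16 cells (4.86 to 4.99). miR-26a-5p thus held 75.3% of the guide reads in B16 exosomes, 89.99% in JB6 exosomes and 83.1% in B16 cells. The 3 intervals did not overlap. Such a ratio of 2 counts in 1 library does not depend on how libraries are scaled.

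The change in this ratio between libraries was measured as an odds ratio with an exact conditional 95% interval. The ratio of miR-26a-5p to miR-26b-5p in B16 exosomes was 0.620 times that in B16 cells (0.545 to 0.705) and 0.340 times that in JB6 exosomes (0.281 to 0.410). In JB6 exosomes it was 1.82 times that in B16 cells (1.59 to 2.10). miR-26b-5p therefore made up a larger part of the guide reads in B16 exosomes than in B16 cells, and a smaller part in JB6 exosomes. miR-26a-5p remained the more frequent guide in each library. The comparisons share libraries, so these changes are not independent of one another.

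**Figure D2:**
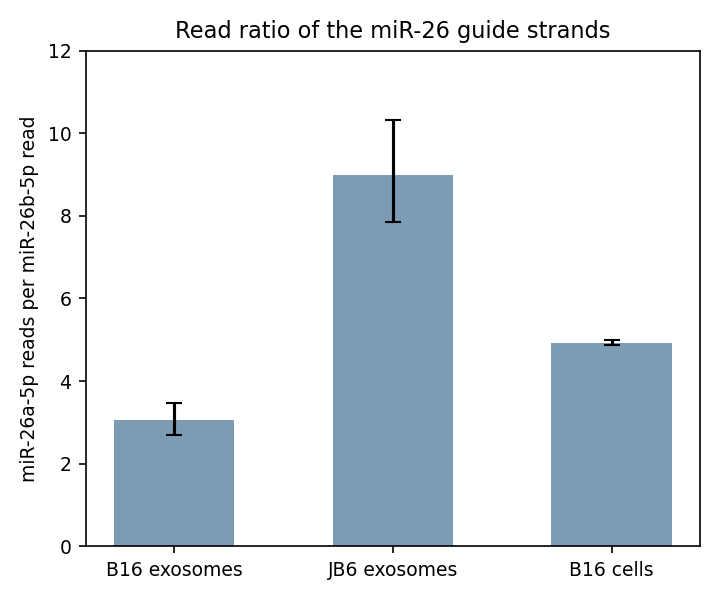
Reads of miR-26a-5p per read of miR-26b-5p in B16 exosomes, JB6 exosomes and B16 cells, 1 library each. Bars are ratios of counts on an axis that starts at 0, and error bars are exact 95% counting intervals. The ratios are 3.05, 8.99 and 4.93, with no overlap of intervals.

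Other miRNA pairs with an identical seed and an edit distance of at most 3 were set beside the miR-26 guides, taking pairs with 10 or more reads for each member in both libraries. A shift of the size seen for miR-26 was common among them. Between B16 exosomes and B16 cells the miR-26 change, 0.69 on the log2 scale in size, ranked 18 of 39 pairs, whose median was 0.60. Between B16 exosomes and JB6 exosomes its size of 1.56 ranked 20 of 39 and was itself the median. Between JB6 exosomes and B16 cells its size of 0.87 ranked 36 of 50 pairs, whose median was 1.86. The counting interval of the change left out 1 for 26 pairs in the first comparison, 34 in the second and 44 in the third. Pairs share members, above all within the let-7 family, so they are not independent, and they span 13 seeds in each comparison with B16 exosomes and 20 in that of JB6 exosomes with B16 cells.

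The pairs with the largest shifts moved far more than miR-26. Per read of miR-148b-3p there were 0.175 reads of miR-148a-3p in B16 exosomes, 233.9 in JB6 exosomes and 0.0136 in B16 cells. Per read of miR-99a-5p there were 0.278 reads of miR-100-5p in B16 exosomes, against 0.0102 in B16 cells, the largest shift of that comparison. miR-146a-5p had 1.72 reads per miR-146b-5p read in B16 exosomes, against 0.0483 in JB6 exosomes.

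**Figure D3:**
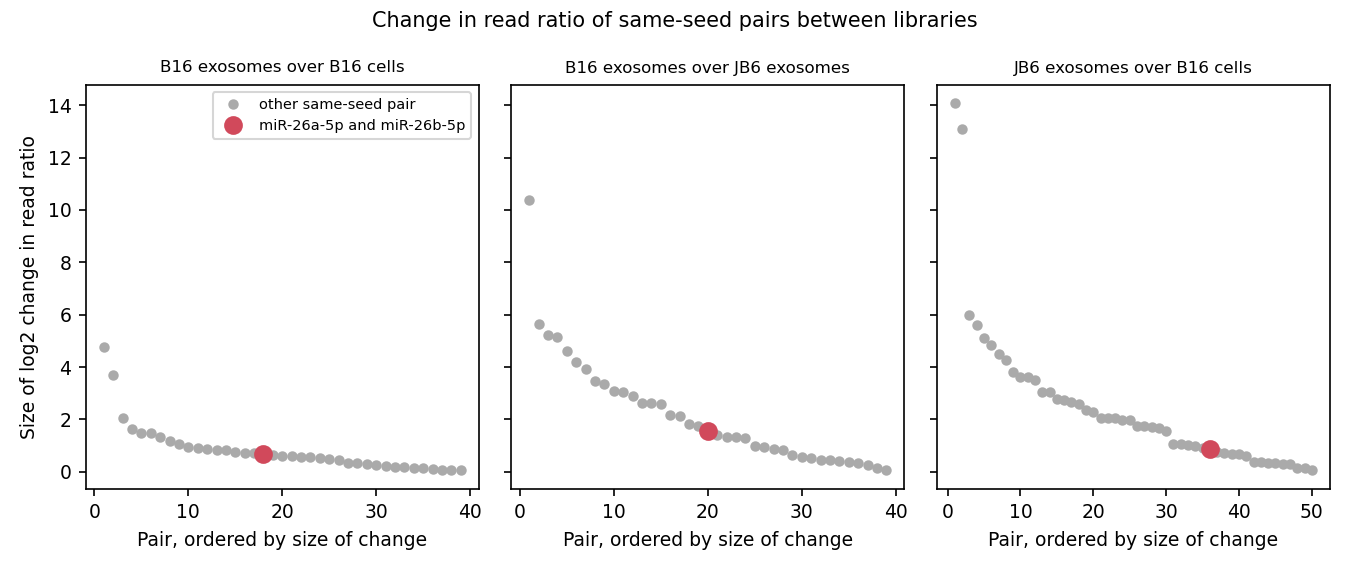
Size of the log2 change in read ratio (vertical axis) of each same-seed miRNA pair, ordered by size (horizontal axis), in 3 comparisons of single libraries. Each grey point is a pair, and the red point is miR-26a-5p with miR-26b-5p. The red point lies in the middle of the order in the first 2 panels, at rank 18 and rank 20 of 39, and at rank 36 of 50 in the last.

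The shares of B16 exosomes were set against those of B16 cells, which asks how vesicles differ from the cells that shed them. miR-26b-5p had a share 2.15-fold higher in the exosomes (exact conditional 95% interval 1.92 to 2.40), and that of miR-26a-5p was 1.33-fold the cell value (1.25 to 1.42). The size rule asked for a ratio of shares of 2-fold or more, in either direction, with an interval that left out 1, and was applied to miRNAs whose reads in both libraries summed to 30 or more. By this rule miR-26b-5p was higher, miR-26a-5p was neither, and miR-26b-3p was not resolved. Of all 422 miRNAs evaluated, 8.53% were higher and 7.82% lower, or 36 and 33 miRNAs, a split that became 16 and 93 with TMM factors and 9 and 257 with the authors' totals. By shares 267 of the 422 were not resolved, and they count in the percentages, which would be larger without them. Among the 144 miRNAs listed in both libraries miR-26b-5p ranked 34 from the highest ratio and miR-26a-5p ranked 52.

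The call for miR-26b-5p depended on the scaling. It was lost with DESeq2 size factors, where the ratio was 1.97, and with TMM factors, where it was 1.06. With the authors' totals it turned to 0.128, a lower call, and miR-26a-5p was then lower too, at 0.0791, as were 60.9% of all miRNAs evaluated. The authors' total was 847694 in B16 exosomes, against 45677 miRNA reads, and 8.72e+06 in B16 cells, against 7925726. These totals moved the median ratio of the 144 miRNAs to 0.0605, against 1.02 for shares of miRNA reads. Relative to that median miR-26b-5p lay 1.08 and miR-26a-5p 0.39 higher on the log2 scale, a gap that no scaling can change, since each moves all ratios by 1 factor.

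The shares of B16 exosomes were then set against those of JB6 exosomes, vesicles of a melanoma line and of a line from normal skin. Both guides were far more frequent in B16 exosomes, miR-26b-5p by 136-fold (115 to 162) and miR-26a-5p by 46.3-fold (42.9 to 50.02). Both met the rule, where 31.3% of 300 miRNAs evaluated were higher and 11.7% lower. That split was 94 to 35 miRNAs, and 61 to 97 with TMM factors, 57 to 109 with DESeq2 size factors and 40 to 153 with the authors' totals. By shares 146 of the 300 were not resolved, and they count in the percentages, which would be larger without them. Among 131 miRNAs listed in both libraries miR-26b-5p ranked 11 from the highest ratio and miR-26a-5p ranked 22. The median ratio of those 131 was 6.14, and relative to it miR-26b-5p lay 4.47 and miR-26a-5p 2.92 higher on the log2 scale.

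Both guides were higher under every scaling tried in this comparison, though by less. The smallest ratios came with the authors' totals, at 9.20 for miR-26b-5p and 3.13 for miR-26a-5p. miR-26b-3p was listed at 0 in both exosome libraries and gave no ratio.

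The JB6 exosome library was also set against the B16 cell library, in which vesicle or cell and line differ together. miR-26b-5p was 63.4-fold lower in JB6 exosomes (55.7 to 72.4) and miR-26a-5p 34.8-fold lower (33.3 to 36.3). Lower calls were the majority here, with 60.7% of 501 miRNAs lower, 26.1% higher and 11 miRNAs not resolved. The 131 higher and 304 lower miRNAs became 165 and 202 with TMM factors and 204 and 134 with DESeq2 size factors. The median ratio of the 305 miRNAs listed in both was 0.361, and relative to it miR-26b-5p lay at -4.52 and miR-26a-5p at -3.65 on the log2 scale. They ranked 285 and 272 of 305 from the highest ratio, and both were lower under every scaling tried.

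Of the passenger strands in this comparison, the share of miR-26a-2-3p in JB6 exosomes was lower by at least 33.7-fold and that of miR-26b-3p by at least 8.70-fold, with each listed 0 set to 9 reads. With counting error the limits nearest to 1 were 17.6-fold and 4.45-fold. The limit for miR-26a-2-3p was 21.3-fold without the 10 most abundant miRNAs, 13.2-fold with TMM factors and 5.64-fold with DESeq2 size factors. miR-26b-3p was not resolved with DESeq2 size factors, while it was lower under the other scalings. miR-26a-1-3p was not resolved by shares of miRNA reads and was lower with the authors' totals, at a ratio of at most 0.450.

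**Figure D4:**
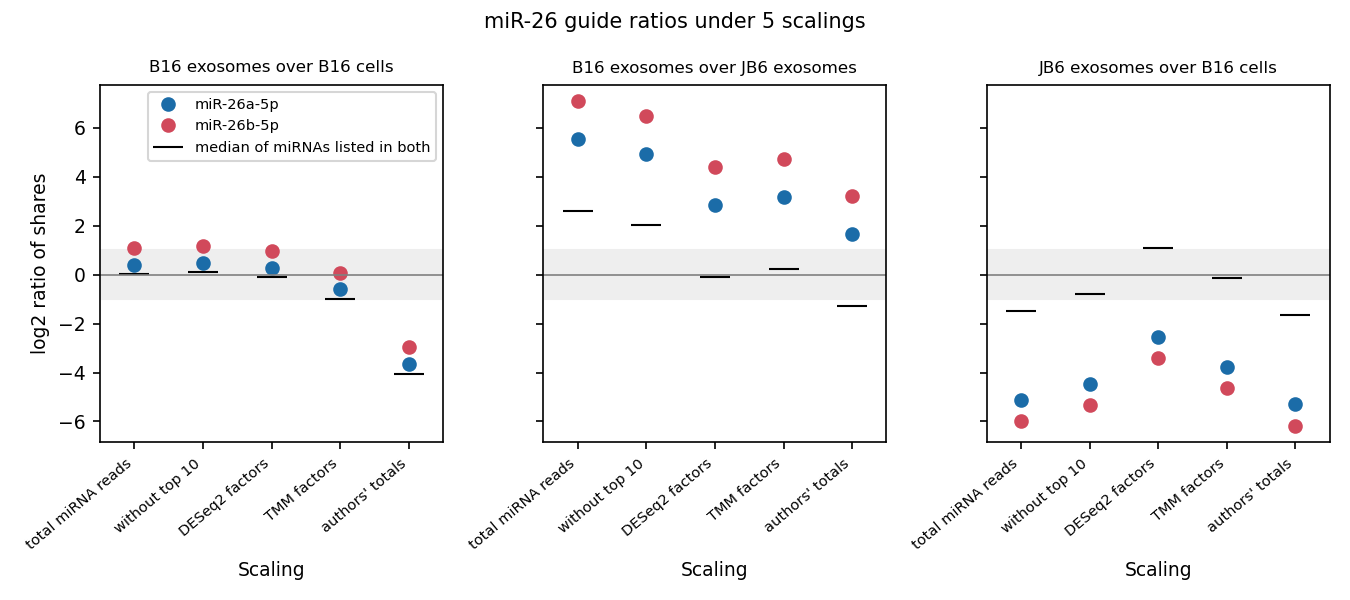
log2 ratio of shares (vertical axis) of miR-26a-5p and miR-26b-5p under 5 scalings of the counts (horizontal axis) in 3 comparisons of single libraries. Black dashes give the median of miRNAs listed in both libraries, and the grey band spans ratios within 2-fold. Both guides lie above the median in the panels of B16 exosomes and below it for JB6 exosomes over B16 cells, and the gap is the same by construction, since a scaling moves all ratios by 1 factor.

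The arms of the hairpins were compared in B16 cells, where both were listed. The 5p arm dominated, with 189 reads of miR-26b-5p per read of miR-26b-3p (160 to 225). This ranked 27 of 149 hairpins with both arms listed, whose median ratio of major to minor arm was 13.6. Hairpins whose minor arm was not listed were left out, so the ratio a hairpin could show was capped by its major-arm reads. The median and the rank therefore depend in part on abundance. miR-26a-5p had 240 reads per read of miR-26a-2-3p (220 to 262) and 4139 per read of miR-26a-1-3p (2916 to 6092). As the 2 miR-26a hairpins give the same guide, its count was used whole for each, and these ratios are upper values for the single hairpins. Between the passenger strands of these hairpins miR-26a-2-3p had 17.3 times the reads of miR-26a-1-3p (12.01 to 25.7) in B16 cells.

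Depth limited what the exosome libraries could show of the arms. Had miR-26b-3p stood at the B16 cell proportion to its guide, 0.530%, it would have had 1.71 reads in B16 exosomes and 1.23 in JB6 exosomes, both below the 10 reads of the smallest listed count. miR-26a-2-3p would have had 4.11 reads in B16 exosomes and 8.73 in JB6 exosomes by the same reckoning. The listed 0 counts set the ratio of miR-26b-5p to miR-26b-3p at no less than 35.9 in B16 exosomes and 25.9 in JB6 exosomes, leaving out counting error, against 189 in B16 cells. For miR-26a-5p to miR-26a-2-3p these limits were 110 in B16 exosomes (57.5 with counting error) and 233 in JB6 exosomes (122), against 240 in B16 cells. A larger part of the passenger strand in vesicles than in cells was thus limited by these values, more tightly for miR-26a-2-3p than for miR-26b-3p, while a smaller part was not detectable at this depth.

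**Figure D5:**
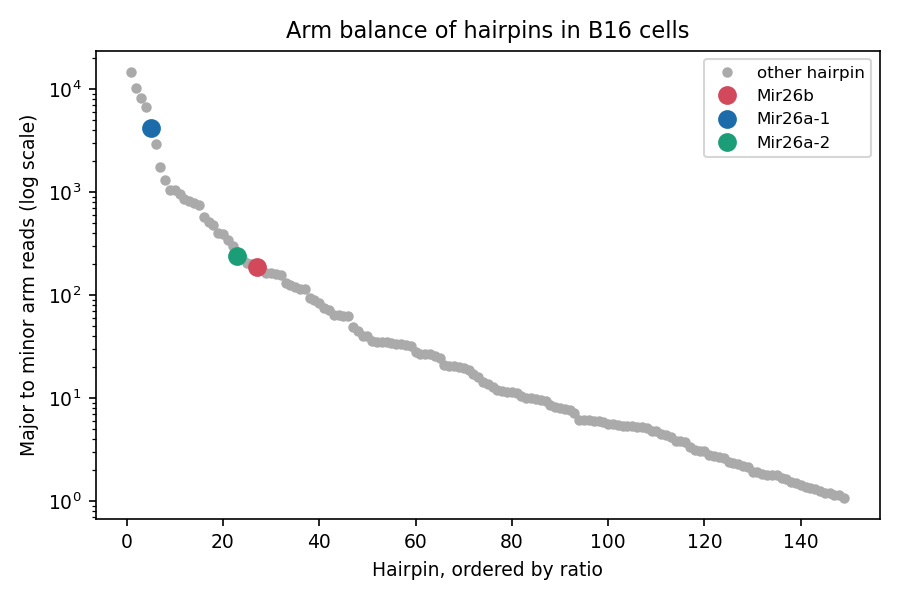
Reads of the major arm per read of the minor arm (vertical axis, log scale) for each of 149 hairpins with both arms listed in the B16 cell library, ordered by ratio (horizontal axis). Hairpins whose minor arm was not listed are left out, so the median and the order depend in part on abundance. Coloured points are Mir26b at 189, Mir26a-2 at 240 and Mir26a-1 at 4139, with the miR-26a-5p count used whole for each miR-26a hairpin, and all lie above the median of 13.6.

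The miRNAs most like each guide were found from the log2 shares in the 3 libraries, each centred on its mean, among 132 miRNAs listed in all 3. The measure was the Euclidean distance between centred profiles. The guides were not each other's nearest. miR-26b-5p ranked 28 of 131 by distance from miR-26a-5p, and miR-26a-5p ranked 10 of 131 from miR-26b-5p, at a distance of 1.10. Nearest to miR-26a-5p were let-7f-5p at 0.32, miR-30e-3p at 0.37, miR-425-5p at 0.40, miR-30a-5p at 0.43 and miR-340-3p at 0.47. let-7f-5p, the closest, held 9.47% of reads in B16 exosomes, 0.234% in JB6 exosomes and 5.95% in B16 cells.

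Nearest to miR-26b-5p were miR-652-3p at 0.27, miR-132-3p at 0.45, miR-106b-5p at 0.50, miR-145a-5p at 0.52 and miR-107-3p at 0.59. miR-652-3p had 31 reads in B16 exosomes, 25 in JB6 exosomes and 3254 in B16 cells. The neighbours of miR-26b-5p rested on 15 to 51 reads in JB6 exosomes. Among those of miR-26a-5p, miR-340-3p had 18 reads in B16 exosomes and 29 in JB6 exosomes, and miR-425-5p had 47 in B16 exosomes. The order within both sets is therefore loose. With 3 libraries the profiles have few points, and these distances are a description only.

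Other miRNAs with targets or genes of the kind known for miR-26 were counted from lists, which were chosen with earlier results of these data known. Of the Ezh2-repressing miRNAs 1 of 7 evaluated was higher and none lower in B16 exosomes against B16 cells, where 8.53% of all miRNAs were higher and 7.82% lower, with a median ratio of 1.02 over the 6 listed in both, which equals the 1.02 of all listed miRNAs. Against JB6 exosomes 5 of 7 were higher and none lower (median 6.55 over 5, against 6.14 for all), where 31.3% of all miRNAs were higher and 11.7% lower. In JB6 exosomes against B16 cells 2 of 9 were higher and 7 lower (0.134 over 5, against 0.361 for all), where 26.1% of all were higher and 60.7% lower. miR-101b-3p, which represses Ezh2, held 0.134% in B16 exosomes, 0.00574% in JB6 exosomes and 0.140% in B16 cells. The summed list held 6.74% in B16 exosomes, 1.08% in JB6 exosomes and 7.06% in B16 cells. Most of this sum was let-7c-5p alone, at 5.03% in B16 exosomes, 0.768% in JB6 exosomes and 4.67% in B16 cells.

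Of the miRNAs that restrain the G1 to S transition 1 of 10 was higher and 1 lower in B16 exosomes against B16 cells, with 6 not resolved (median ratio 0.791 over 4, against 1.02 for all), beside 8.53% higher and 7.82% lower over all miRNAs. Against JB6 exosomes 1 of 2 was higher and none lower (6.95 over 2, against 6.14 for all), beside 31.3% higher and 11.7% lower. In JB6 exosomes against B16 cells none of 10 was higher and 9 were lower (0.0348 over 4, against 0.361 for all), beside 26.1% higher and 60.7% lower. miR-16-5p, which represses G1 cyclins, held 0.269% in B16 exosomes, 0.00529% in JB6 exosomes and 0.121% in B16 cells. It was the 1 called higher in B16 exosomes against B16 cells. miR-34c-5p, the 1 called lower there, held 0.0350% in B16 exosomes, 0.0369% in JB6 exosomes and 0.0852% in B16 cells, another order of libraries.

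The last list held miRNAs from introns, most of them in genes that, like the Ctdsp genes, have a paralogue with a related miRNA. In B16 exosomes against B16 cells 0 of 8 were higher or lower (median ratio 0.653 over 6, against 1.02 for all), beside 8.53% higher and 7.82% lower over all miRNAs. Against JB6 exosomes 3 of 6 were higher and 1 lower (10.4 over 4, against 6.14 for all), beside 31.3% higher and 11.7% lower. In JB6 exosomes against B16 cells 2 of 9 were higher and 6 lower (0.411 over 7, against 0.361 for all), shares near the 26.1% higher and 60.7% lower over all miRNAs. miR-103-3p, from introns of the Pank genes, held 0.731% in B16 exosomes, 0.00302% in JB6 exosomes and 0.511% in B16 cells, the same order of libraries as both miR-26 guides. miR-128-3p held 0.230% in B16 exosomes, 0.265% in JB6 exosomes and 0.368% in B16 cells, another order, with B16 cells highest. The interval of its ratio in B16 exosomes over JB6 exosomes, 0.868 (0.709 to 1.05), took in 1. All list counts use shares of miRNA reads, and other scalings turn the split of higher and lower calls over all miRNAs, as given above for each comparison. Percentages over all miRNAs, like the list counts, keep unresolved miRNAs in the number evaluated.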

How the data were processed

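Counts of reads per mature miRNA were deposited by the authors, not normalized, per the file headers, in 1 file a library. A second column, deposited by the authors, holds an RPM value, which equals the count times a constant, and its total exceeds the summed counts in each file. The excess was greatest in B16 exosomes, where the total was 847694 against 45677 summed counts. For JB6 exosomes these were 5.63e+06 and 4495956, and for B16 cells 8.72e+06 and 7925726. Shares in B16 exosomes thus rest on a small part of that total. Per the submitters' processing notes, the tools were bcl2fastq and BWA and the build mm10. The sources used here do not state versions, miRNA release, or the mismatch, strand and multi-mapping rules.

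Shares are of summed miRNA counts. Ratios of shares have exact conditional binomial intervals, and changes in read ratio exact conditional odds-ratio intervals, all at 95%. The reads carry no molecular identifiers, and repeated copies of a molecule count as separate reads. A listed 0 was taken as 9 reads. Calls needed 2-fold and 30 reads over the pair. Alternatives were TMM factors (edgeR 4.0.16), size factors from DESeq2 1.42.0, totals that leave out the 10 most abundant miRNAs, and the authors' totals, and other minimums. Computation used Python 3.11.15 and SciPy 1.17.1. Only the ratios of shares and their calls were tested on simulated counts, which were drawn from the shares of B16 cells. Sequences came from RefSeq, which matched 1623 of 1915 miRNAs by name, so same-seed and arm comparisons cover those. Named miRNAs were the members, the other hairpin arms, the 5 nearest in profile, up to 4 same-seed pairs with larger shifts and up to 4 abundant miRNAs a list. Members and lists were chosen with earlier results of these data known. The result for 1 further list is not reported here.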

Additional observations from a re-analysis of the deposited data

How the results depend on the processing

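Adding passenger reads to the guides is no check of their ratio, since both exosome libraries list these strands at 0. Shares moved with the scaling. In B16 exosomes over B16 cells miR-26b-5p was 2.15, but 1.06 with TMM factors and 0.128 with the authors' totals, which reversed it. miR-26a-5p was 0.658 with TMM, 1.22 with DESeq2 and 0.0791 with the authors' totals, and the bound for miR-26b-3p was 0.671 with those totals. In B16 exosomes over JB6 exosomes TMM, DESeq2, totals without the 10 most abundant miRNAs and the authors' totals gave 8.98, 7.11, 30.5 and 3.13 for miR-26a-5p, and 26.4, 20.9, 89.7 and 9.20 for miR-26b-5p. In JB6 exosomes over B16 cells they gave 0.0733, 0.172, 0.0456 and 0.0253 for miR-26a-5p. For miR-26b-5p the first 3 gave 0.0402, 0.0943 and 0.0250, and the bound for miR-26b-3p was 0.293 with TMM and 0.687 with DESeq2. The scalings differ by construction in the total they divide by. Taking 1 read for a listed 0 moved the miR-26b-5p to miR-26b-3p ratio to 323 in B16 exosomes and to 233 for JB6 exosomes. The number of miRNAs meeting the size rule in B16 exosomes over B16 cells was 69, against 109 with TMM (16 higher, 93 lower), 266 with the authors' totals (9 and 257) and 37 when the interval limit had to reach 2-fold. The other alternatives left 37 values within their interval or within 1.5 times the count. Such a count takes higher and lower calls together, and their split turned under some scalings, as given above. With DESeq2 size factors miR-26b-5p stayed within its interval in B16 exosomes over B16 cells, though its call was lost. No paired analysis was possible because each group held 1 library. Depth limits what the exosome libraries show of passenger strands.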
